A study of Rattus norvegicus with 6 samples.

Results

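tRNA-derived fragments (tRFs) numbered tRF00043550 to tRF00043699 were examined in the fat of rats fed a high fat diet (HFD) or a low fat diet (LFD). This run of numbers was chosen by the measured counts of tRF00043603 and tRF00043636, which were richer in the LFD group, and it was cut to the tRFs that reached 10 counts or more in 2 or more of the 6 libraries. The minimum left 86 of the 150 tRFs in the run, of 65535 tRFs listed and 4229 listed tRFs that met the same minimum. Because the run was chosen for its difference between the diets, all values set between the diets are given as a description and without a test.

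tRFs are cut from tRNAs, the adaptors that bring amino acids to the ribosome. Cleavage in the anticodon loop gives longer fragments, and cuts nearer the ends give shorter ones. In cells under stress the longer fragments can accumulate, and several tRFs have been found to bind argonaute proteins and to lower target mRNAs in the manner of miRNAs. The table pairs the numbers with no sequence and no parent tRNA, so no sequence is printed, no role can be assigned to a single tRF here, and neighboring numbers are not taken to mean a shared tRNA.

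Male Sprague Dawley rats entered the study at 6 weeks of age and were fed for 100 days, 8 rats per diet, and 3 libraries per diet were sequenced. The HFD held 40% fat, and the LFD, the control, was normal chow. The labels name adipose as the tissue and also heart as the source and give an age of 8 weeks, whereas the paper names perirenal fat, and the tRF table holds no mRNA with which the tissue could be checked. Neither source says that each library came from its own rat, so the spread between libraries may be partly technical. The library totals ran from 1322760 (LFD 1) to 12180060 (HFD 1), so that 1 count equals 0.756 CPM (counts per 1000000 counts of the library) in LFD 1 and 0.0821 CPM in HFD 1. All shares below are reads of a tRF divided by all reads of that library in the table. Values are given in the order HFD 1, HFD 2, HFD 3 and then LFD 1, LFD 2, LFD 3.

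Summed, the 86 tRFs were more abundant in every LFD library than in any HFD library. Their share stood at 4.86%, 3.43% and 4.88% under HFD and at 8.12%, 13.3% and 26.1% under LFD. The mean was 4.39% ± 0.832 (SD, n = 3) under HFD, the mean under LFD was 15.9% ± 9.27 (SD, n = 3), and their ratio was 3.61. The LFD libraries were thus spread far more widely than the HFD libraries. The exact 95% binomial interval in the shallowest library, LFD 1, was 8.07% to 8.17%, and it covers counting error only, since reads from PCR are not independent molecules. In whole tissue, fewer cells of a type and less RNA per cell cannot be told apart.

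The excess over the HFD mean was uneven among the LFD libraries. It was 3.73 percentage points in LFD 1, 8.92 in LFD 2 and 21.7 in LFD 3, or 10.8%, 25.9% and 63.2% of the summed excess. The mean LFD excess was 11.5 percentage points with all libraries and 6.32 without LFD 3, without LFD 2 it was 12.7 and without LFD 1 it was 15.3. The place of LFD 1 depended on the scaling. With effective library sizes from TMM (trimmed mean of M values, a scaling that assumes that most tRFs do not change), the 86 tRFs held 5.15% in LFD 1, below the 5.47% to 5.54% of the HFD libraries, while LFD 2 (9.04%) and LFD 3 (29.8%) stayed above them. The totals themselves differed in make-up, since the most abundant tRF of the table, tRF00041773, took up a mean of 46.1% of the counts under HFD and 17.0% under LFD. When it was left out of the totals, LFD 1 lay above the HFD libraries again, at 11.0% against 7.45% to 8.52%.

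tRF00043603 and tRF00043606 carried most of the excess. The share of tRF00043603 stood at 0.936%, 0.112% and 1.12% under HFD and at 0.923%, 5.63% and 8.31% under LFD. LFD 1 therefore lay among the HFD libraries, and the groups overlapped. tRF00043606, for which the run was not named, stood at 0.308%, 0.0254% and 0.457% under HFD and at 0.676%, 3.49% and 11.6% under LFD. Here the groups did not overlap, and in LFD 3 it was the more abundant of the pair. With TMM sizes the LFD 1 value of tRF00043606 (0.429%) lay within the HFD range of 0.0404% to 0.512%.

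The mean share of tRF00043606 was 0.263% ± 0.219 under HFD and 5.26% ± 5.68 under LFD (SD, n = 3 per diet), an LFD to HFD ratio of 20.0 with LFD 3 and 7.92 without it. For tRF00043603 the means were 0.722% ± 0.537 and 4.95% ± 3.74 (SD, n = 3 per diet), with ratios of 6.86 and 4.54. The LFD standard deviation exceeded the LFD mean for tRF00043606, and HFD 2 was far below the other HFD libraries for both. Together the pair made up 19.9% of all counts in LFD 3 and 9.13% in LFD 2. In LFD 1 it made up 1.60%, beside 1.58% in HFD 3, the highest HFD library.

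tRF00043636 and its neighbor tRF00043635 were rare in HFD and in LFD 1 and common only in LFD 2 and LFD 3. The counts of tRF00043636 stood at 5, 10 and 0 under HFD and at 3, 716 and 5504 under LFD. In CPM these were 0.411, 0.915 and 0 under HFD and 2.27, 154 and 566 under LFD, and 3 counts would make 0.522 CPM in HFD 3. The mean LFD level was 545 times the mean HFD level, and 177 times without LFD 3. The 3 counts of LFD 1 place it only just above the HFD libraries, and with TMM sizes LFD 1 no longer exceeded HFD 2. The counts of tRF00043635 stood at 24, 53 and 4 under HFD and at 1, 1332 and 4093 under LFD. Its single count in LFD 1 (0.756 CPM) lay within the HFD range of 0.695 to 4.85 CPM, while LFD 2 (287 CPM) and LFD 3 (421 CPM) lay well above. The level of tRF00043636 was 3.67 times higher in LFD 3 than in LFD 2, and that of tRF00043635 1.47 times higher.

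The remaining 4 abundant tRFs of the run followed other patterns. tRF00043698 stood at 1.21%, 0.436% and 1.03% under HFD and at 2.99%, 0.942% and 1.61% under LFD. tRF00043694 stood at 0.50%, 0.442% and 0.417% under HFD and at 1.44%, 0.562% and 0.694% under LFD. Both were highest in LFD 1, and only for tRF00043694 did every LFD library lie above every HFD library. With TMM sizes its LFD 2 value (0.382%) lay below the HFD range of 0.467% to 0.704%.

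tRF00043595 had shares of 0.963%, 0.718% and 0.987% under HFD and of 0.608%, 1.84% and 2.87% under LFD. It thus resembled tRF00043603 in LFD 2 and LFD 3, but LFD 1 was its lowest library. tRF00043683 showed no excess in LFD, with 0.783%, 1.57% and 0.725% under HFD and 1.3%, 0.656% and 0.738% under LFD. Its highest library was HFD 2, the library in which tRF00043603 and tRF00043606 were lowest. These 4 tRFs and the pair above, the 6 with the highest mean share, held 96.2% to 98.8% of the counts of the run in every library.

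In shares of all counts, the excess of LFD 1 rested mainly on other tRFs than the excess of LFD 2 and LFD 3. With TMM sizes LFD 1 had no excess to divide, at −0.346 percentage points from the HFD mean. The division of its excess below thus holds for shares of all counts only. In LFD 2, tRF00043603 supplied 55.1% and tRF00043606 36.2% of the library's excess over the HFD mean. In LFD 3 the order was turned, with 34.9% from tRF00043603 and 52.2% from tRF00043606. In LFD 1 the same pair supplied 5.38% and 11.1%, whereas tRF00043698 supplied 56.3% and tRF00043694 26.4%. In LFD 2 and LFD 3, these last 2 tRFs supplied 0.547% and 3.30% (tRF00043698) and 1.23% and 1.11% (tRF00043694). Over the mean of the LFD libraries, tRF00043606 held 43.6% of the excess and tRF00043603 36.9%. Without the pair, the run held 3.40% ± 0.187 under HFD and 5.64% ± 1.27 under LFD (SD, n = 3 per diet), and the mean excess was 2.24 percentage points. tRF00043636, one of the tRFs for which the run was chosen, supplied 0.210% of the mean excess.

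Sums over stretches of 50 numbers, a step chosen after the values were seen, mostly restated the shares of the abundant tRFs. They are no separate support for this division. tRF00043603 and tRF00043606 alone held 1.24%, 0.137% and 1.58% under HFD and 1.60%, 9.13% and 19.9% under LFD. The 25 tRFs from tRF00043600 to tRF00043649, which include this pair, held 1.25%, 0.143% and 1.58% under HFD and 1.61%, 9.23% and 20.1% under LFD. They supplied 92.4% of the excess of LFD 2 and 88.0% of that of LFD 3, but 16.5% of that of LFD 1. The 29 tRFs from tRF00043650 to tRF00043699, which include tRF00043698, tRF00043694 and tRF00043683, held 2.54%, 2.49% and 2.21% under HFD and 5.80%, 2.18% and 3.07% under LFD. They supplied 90.7% of the excess of LFD 1, and in LFD 2 they lay below the HFD mean. With TMM sizes this stretch held 3.68% in LFD 1, within the HFD range of 2.48% to 3.97%. The 32 tRFs from tRF00043550 to tRF00043599 held 1.07%, 0.795% and 1.08% under HFD and 0.712%, 1.90% and 2.93% under LFD, lowest in LFD 1 and highest in LFD 3.

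The make-up of the run differed between libraries, although HFD 1 and HFD 3 were alike. In these libraries the run also held nearly equal shares of all counts (4.86% and 4.88%). tRF00043603 and tRF00043606 together formed 25.6%, 3.99% and 32.3% of the run's counts under HFD and 19.7%, 68.6% and 76.2% under LFD. By this measure LFD 1 stood among the HFD libraries. For tRF00043603 and tRF00043636, the tRFs that led to the run, the mean was 15.1% ± 10.5 of the run under HFD and 28.6% ± 15.8 under LFD (SD, n = 3 per diet), and the groups overlapped. The largest tRF of the run was tRF00043698 in HFD 1 (24.9% of the run) and LFD 1 (36.8%), tRF00043683 in HFD 2 (45.7%), tRF00043603 in HFD 3 (22.9%) and LFD 2 (42.3%), and tRF00043606 in LFD 3 (44.4%). Between 4 and 6 tRFs sufficed in each library to reach 90% of its counts.

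Ratios between tRFs of the run do not depend on the scaling of the libraries. tRF00043606 had 0.329, 0.227 and 0.409 counts per count of tRF00043603 under HFD and 0.733, 0.621 and 1.40 under LFD. This was a measure in which LFD 1 stood with the other LFD libraries, and the groups did not overlap. The ratio of tRF00043694 to tRF00043698 was 0.412, 1.01 and 0.404 under HFD and 0.481, 0.597 and 0.431 under LFD, so that 5 of the 6 libraries lay between 0.404 and 0.597. The ratio of tRF00043683 to tRF00043603 varied 158-fold, from 0.0889 in LFD 3 to 14.0 in HFD 2, and that of the less abundant tRF00043678 to tRF00043603 varied 602-fold. Among tRFs counted in every library, the steadiest ratio to tRF00043603 varied only 1.72-fold, and that of tRF00043606 varied 6.15-fold. Some tRFs thus stayed close to tRF00043603, but the run as a whole did not keep fixed proportions.

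Of the 86 tRFs, 52 (60.5%) had both LFD 2 and LFD 3 above the other 4 libraries, against 26.2% of all 4229 tRFs with the count minimum. For 13 of the 52 the pattern came with the choice, since these reached 10 counts in LFD 2 and LFD 3 alone, and among the 73 others it held for 39. tRF00043603 and tRF00043636, whose values chose the run, are also counted, so that these numbers only describe the members. LFD 3 was the highest library for 49 (57.0%, against 25.7% of all), LFD 1 for 24 (27.9%, against 34.1%) and LFD 2 for 5 (5.81%, against 14.3%). An HFD library was the highest for the other 8. These were HFD 1 for 2 (2.33%, against 11.2%), HFD 2 for 5 (5.81%, against 8.23%) and HFD 3 for 1 (1.16%, against 6.5%). In the stretch from tRF00043600 to tRF00043649, LFD 2 and LFD 3 lay above the other 4 libraries for 25 of 25 tRFs, of which 7 met the minimum through these libraries alone. This held for 20 of 32 in the stretch before it and for 7 of 29 in the stretch after it, where LFD 1 was the highest library for 16. With TMM sizes the count over the whole run was 46 of 86, against 22.9% of all, and in the middle stretch it was 23 of 25. HFD 2 was the lowest of all 6 libraries for 41 of the 86 (47.7%, against 31.1% of all).

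The log2 CPM of each tRF was also compared over the 6 libraries with that of the rest of the run. The median Pearson correlation was 0.80 for the 86 tRFs (quartiles 0.36 and 0.92), and 0.19 for the other 4143 tRFs that met the minimum (quartiles −0.40 and 0.70). It was 0.91 for the stretch from tRF00043600 to tRF00043649 and 0.46 for the stretch from tRF00043650 to tRF00043699. The correlation was above 0.8 for 43 of the 86 (50%, against 19.4% of the other 4143). It was below 0 for 14 (16.3%, against 42.3%). The 86 include the 13 tRFs that reached 10 counts in LFD 2 and LFD 3 alone. These correlations rest on 6 libraries, of which LFD 2 and LFD 3 are the high points, the tRFs share the libraries and their depth, and the rest of the run consists mainly of the 6 abundant tRFs.

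Mean levels were higher in LFD than in HFD for 76 of the 86 tRFs (88.4%, against 71.8% of all 4229) and lower for 10. With TMM sizes they were higher for 68 (79.1%, against 57.8% of all). The 76 include the 13 tRFs that reached 10 counts in LFD 2 and LFD 3 alone. tRF00043603 and tRF00043636, whose values chose the run, are also among the 76, so that these counts only describe the members. Beside tRF00043636 and tRF00043635, the largest ratios among tRFs with at least 50 counts were those of tRF00043608, tRF00043614 and tRF00043627. tRF00043608 had 0 counts in all HFD libraries and in LFD 1, and 13 and 79 counts in LFD 2 and LFD 3. Pooled over the libraries, this is at least 56.4-fold higher in LFD, with 3 counts in the HFD group as the floor. tRF00043614 had counts of 1, 0 and 1 under HFD and of 1, 27 and 135 under LFD. tRF00043627 had counts of 4, 0 and 1 under HFD and of 1, 32 and 176 under LFD. In both, LFD 1 had a single count and was placed above the HFD libraries only by its small total. The ratios of mean levels were 79.9 and 51.2, and without LFD 3 they were 38.5 and 22.8. The 80 tRFs outside the abundant 6 had 39 to 13721 counts in total, and together they made up 0.131% to 0.163% of the counts in HFD and 0.176% to 0.303% in LFD.

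A few moderately abundant tRFs of the run were instead higher under HFD. tRF00043591 stood at 503, 313 and 415 CPM under HFD and at 240, 110 and 99.0 CPM under LFD, and every HFD library lay above every LFD library. The next number down, tRF00043590, had 397, 308 and 332 CPM under HFD and 375, 107 and 58.2 CPM under LFD, so that LFD 1 lay within the HFD range. tRF00043677 had 207, 221 and 197 CPM under HFD and 263, 56.6 and 45.6 CPM under LFD. tRF00043678 had 150, 172 and 129 CPM under HFD and 149, 33.1 and 21.3 CPM under LFD. In tRF00043590, tRF00043677 and tRF00043678, LFD 2 and LFD 3 were below every HFD library and LFD 1 was within or above their range. The rare tRF00043567, with counts of 26, 6 and 15 under HFD and of 0, 2 and 2 under LFD, was the other tRF with every HFD library above every LFD library.

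In all, every LFD library lay above every HFD library for 40 of the 86 tRFs (46.5%), and every HFD library above every LFD library for 2 (2.33%). Over all 4229 tRFs with the minimum these shares were 19.7% and 7.16%. Some of the 40, such as tRF00043614 and tRF00043627, met the minimum through LFD 2 and LFD 3 alone. tRF00043636, whose values helped to choose the run, is also among the 40, so that this count only describes the members. LFD 1 had 3 counts or fewer for 14 of the 40, and 10 counts or more for 10. The count of 40 became 16 with TMM sizes (9.46% of all tRFs) and 27 without tRF00041773 in the totals (11.1% of all). It became 28 with every library thinned to 1322760 counts, for which no share of all tRFs is given. The opposite count of 2 became 5 with TMM sizes (14.2% of all). Without LFD 1 the count of 40 became 60, against 33.6% of all. LFD 1 by itself lay above every HFD library for 56 (65.1%, against 52.8% of all), within their range for 19 (22.1%, against 33.2%) and below them for 11 (12.8%, against 14.0%). With TMM sizes these counts were 31, 34 and 21, and the shares of all tRFs were 30.4%, 44.6% and 25%.

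A fit of the whole table with edgeR's quasi-likelihood test gave the fold changes (HFD over LFD) and their standard errors. No tRF of the 4229 had an adjusted p under 0.05 in it (0%), hence none of the 86. At an unadjusted p under 0.05, edgeR gave 30 of the 86 lower in HFD, against 12.8% of all tRFs, and 4 higher, against 9.06%. DESeq2 called 26 of the 86 lower in HFD, against 10.1% of all, and 1 higher, tRF00043591, against 4.71%. DESeq2 gave 190 of the 4229 no adjusted p. limma called none, with 25 lower (against 9.65% of all tRFs) and 5 higher (against 9.01%) at an unadjusted p under 0.05. As the run was chosen on this contrast, nothing is read from these counts.

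The log2 fold change in edgeR was −2.47 (standard error 1.00) for tRF00043603, −4.15 (1.28) for tRF00043606, −5.96 (1.84) for tRF00043635 and −8.54 (2.12) for tRF00043636. The median was −0.35 over all tRFs tested and −1.27 over the 86. The median over all tRFs went to 0.11 with upper quartile scaling, where 414 tRFs were lower and 552 higher at an unadjusted p under 0.05, and to −1.01 with library size alone, where 735 were lower and 138 higher, beside 540 and 383 with TMM. Relative to the median of all tRFs, tRF00043603 was at −2.12 and tRF00043606 at −3.80. Of the other abundant tRFs, tRF00043698 was at −0.44 (0.61), tRF00043694 at −0.26 (0.58), tRF00043595 at −0.55 (0.73) and tRF00043683 at 0.99 (0.64). All had an unadjusted p above 0.05 in edgeR, from which nothing is read, as the run was chosen on this contrast. With upper quartile scaling tRF00043698, tRF00043694 and tRF00043595 turned to between 0.05 and 0.20. tRF00043591 was at 2.18 (0.69), tRF00043590 at 1.80 (0.77), tRF00043677 at 1.66 (0.81), tRF00043678 at 2.07 (0.85) and tRF00043567 at 3.17 (1.07), and their sign held with library size, RLE and upper quartile scaling. Without LFD 3 and with the same tRFs kept, tRF00043603 went to −1.40, tRF00043606 to −2.22 and tRF00043636 to −6.31. Without LFD 1 they were −3.00, −4.70 and −9.13, and without LFD 2 they were −2.59, −4.50 and −8.92.

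Beyond the ends of the run the counts were small. The 150 numbers before it held 0.0178% to 0.0270% of the counts in HFD and 0.0521% to 0.10% in LFD, and the 150 numbers after it held 0.0458% to 0.106% in HFD and 0.202% to 0.262% in LFD. In both windows every LFD library again lay above every HFD library, with ratios of the means of 3.41 and 2.75.

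Of the 150 tRFs in the run, 64 missed the minimum, with 521 counts in total, and 6 of these had none in any library. Just inside the minimum, by the second highest count, were tRF00043668 (11, 7 and 5 counts in HFD and 1, 4 and 17 in LFD), tRF00043696 (13, 2 and 1 and then 1, 10 and 12) and tRF00043667 (10, 27 and 12 and then 2, 7 and 10). Just outside were tRF00043680 (9, 14 and 2 in HFD and 9, 6 and 7 in LFD), tRF00043633 (3, 22 and 0 and then 0, 5 and 7) and tRF00043609 (1, 0 and 2 and then 0, 6 and 120). Among the 86, 21 reached 10 counts in every library, and 13 reached it only in LFD 2 and LFD 3 and would have been missed by a minimum set on the HFD libraries.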

How the data were processed

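Small RNA of 15 to 40 nt was sequenced from 3 libraries per diet. The table deposited by the authors gives unnormalized counts of reads, in whole numbers. The submitters' processing notes give Rnor_5.0 as the genome. Which aligner, which set of tRNAs and which rule for reads shared between tRNAs the authors used: not given in the sources used here. tRFs numbered above 65535 were not analysed here and are missing from all totals. Libraries were grouped by their titles. The members and the lists were chosen with earlier results of these data known. Shares, CPM and exact (Clopper-Pearson) intervals were computed in Python 3.11.15. Correlations used log2 CPM with 0.5 added to each count. The whole table was fitted with edgeR 4.0.16 (quasi-likelihood test, TMM, Benjamini-Hochberg adjustment over the 4229 tRFs that met the minimum), which was tested on simulated data. Its standard error is the fold change divided by the square root of F. DESeq2 1.42.0 and limma 3.58.1 (prior count 1) were alternatives, in R 4.3.3, beside other scalings, minimums and ranges, a block for the replicate number, and leaving out single libraries. tRFs named were tRF00043603, tRF00043636, the 10 others with the highest mean share, up to 5 with every HFD library above every LFD library, the 5 with the largest LFD to HFD ratio and 3 on each side of the minimum.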

Additional observations from a re-analysis of the deposited data

Results flagged for a closer look

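tRF00043633 missed the count minimum of the run but had 22 counts in HFD 2, or 2.014 CPM, which was above its level in every LFD library (at most 1.08 CPM in LFD 2). It had 3 counts in HFD 1 and 0 in HFD 3. The level thus came from 1 library.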

How the results depend on the processing

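The difference in the share of the run between LFD and HFD (11.5 percentage points) kept its direction under all alternatives run, from 10.4 without tRF00041773 in the totals, 9.17 with TMM sizes and 10.2 with the range 25 numbers shorter at each end to 7.23 without tRF00043603, 2.24 without tRF00043603 and tRF00043606 (chosen after the data were seen) and 6.32 to 15.3 with each library left out. The share of the run held by tRF00043603 and tRF00043636 differed by 13.5 percentage points, and by 6.54 (without LFD 2), 7.51 (without HFD 2) or up to 22.1 (without LFD 1) with each library left out. tRFs with every LFD above every HFD library numbered 40 (against 19.7% of all tRFs), and 16 with TMM sizes (against 9.46%). Those highest in LFD 3 numbered 49 (against 25.7% of all), and 55 with TMM sizes (against 31.3%). They numbered 41 with thinned libraries, for which no share of all tRFs is given. edgeR called 0 tRFs with each scaling, with limma in its place, with either other minimum and with each library left out, but 48 without a count minimum. DESeq2 called 625, and 923 had an unadjusted p under 0.05 in edgeR. In a fit with a replicate block edgeR called 0, the median log2 fold change of the 86 was −1.32 beside −1.27, and 20 (against 6.62% of all tRFs) were lower at an unadjusted p under 0.05 beside 30 (against 12.8%). Same-numbered libraries did not deviate together from their diet means (correlations −0.32, −0.28 and −0.09). With 3 libraries per diet this cannot exclude that the numbers pair them. The median was −2.36 with a minimum of 50 counts, where 39 of the 86 were tested. The causes of these changes were not tested. LFD 1, with the fewest counts, limits the rare tRFs, of which 34 had 3 counts or fewer in it.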
